A study of Homo sapiens with 4 samples.

Results

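The respiratory chain subunits encoded in the nucleus were examined in RNA-seq libraries of HGC-27, a human gastric cancer cell line, treated or not with the peptide GLUP. Members were taken by symbol among protein-coding genes. They were all genes whose symbol starts with NDUFA, NDUFB, NDUFC, NDUFS, NDUFV, UQCR, COX4I, COX5, COX6, COX7, COX8, ATP5F1, ATP5M or ATP5P, together with SDHA, SDHB, SDHC, SDHD, CYC1 and CYCS, and without the NDUFAF assembly factors. This gave 91 of the 62443 genes in the deposited table, of which 38 belong to complex I, 4 to complex II, 10 to complex III, 19 to complex IV and 19 to complex V, with CYCS as the single cytochrome c gene. NDUFA4 and NDUFA4L2 were counted with complex IV. The rule uses symbols and no measured value, although the set was proposed with earlier results of these data known.

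There were 4 libraries, 2 of untreated or buffer-treated cells (Con 1 and Con 2) and 2 of cells treated with GLUP (GLUP 1 and GLUP 2). GLUP is a cyclic peptide designed after the TEAD4-binding motif of VGLL4 to link TEAD4 molecules into condensates, and it was given at 10 μg/ml. The labels call the controls untreated, whereas the study's methods name the peptide's storage buffer. The treatment time is given as 12 h in one place of the study and 48 h in another. All libraries come from a single cell line with no genetic change, so the comparison is between treated and control cultures of HGC-27 only.

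The respiratory chain passes electrons from NADH and succinate to oxygen across complexes I to IV in the inner mitochondrial membrane. The proton gradient that results drives complex V, the ATP synthase. Most subunits are made from nuclear genes and imported, and a small set, near the centre of complexes I, III, IV and V, is made from mitochondrial DNA. Each complex has core subunits, most of which carry redox centres or catalytic sites, and accessory subunits, which shape and stabilise it. Nuclear respiratory factor 1 (NRF1), the ETS factor GABP and YY1 are known to bind many of these genes' promoters.

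Promoter sequence was found in RefSeq (GRCh38.p14) for 71 of the 91 genes. The sequences of 5 of the promoters that hold an NRF1 or ETS motif are shown, of genes described in detail whose groups did not overlap. Both GLUP libraries lay below both controls for NDUFS3, SDHD and ATP5PF and above for NDUFB7 and ATP5MC2. Each is the 150 bases that end just before the RefSeq start, 5′ to 3′ on the gene's strand. Capitals mark the NRF1 motif (GCATGCGC) or the ETS motif (CCGGAAG) on either strand.
NDUFS3 (chr11:47578924-47579073, plus strand): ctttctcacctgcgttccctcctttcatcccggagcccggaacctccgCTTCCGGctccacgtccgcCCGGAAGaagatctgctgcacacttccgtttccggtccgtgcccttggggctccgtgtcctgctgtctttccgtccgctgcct
SDHD (chr11:112086723-112086872, plus strand): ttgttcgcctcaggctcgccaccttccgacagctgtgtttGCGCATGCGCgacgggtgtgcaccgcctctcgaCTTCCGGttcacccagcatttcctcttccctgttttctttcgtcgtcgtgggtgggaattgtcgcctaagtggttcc
ATP5PF (chr21:25735055-25735204, minus strand): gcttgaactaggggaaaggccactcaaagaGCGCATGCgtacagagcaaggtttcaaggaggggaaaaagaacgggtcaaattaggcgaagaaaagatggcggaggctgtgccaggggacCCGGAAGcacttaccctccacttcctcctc
NDUFB7 (chr19:14572067-14572216, minus strand): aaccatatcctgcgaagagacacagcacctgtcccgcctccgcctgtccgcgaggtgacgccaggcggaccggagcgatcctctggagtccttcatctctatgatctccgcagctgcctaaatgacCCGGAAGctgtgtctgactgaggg
ATP5MC2 (chr12:53676084-53676233, minus strand): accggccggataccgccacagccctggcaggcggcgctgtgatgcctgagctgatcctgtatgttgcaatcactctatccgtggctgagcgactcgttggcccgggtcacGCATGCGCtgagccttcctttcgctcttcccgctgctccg
The NDUFS3 promoter held an ETS motif on each strand, and SDHD held NRF1 matches on both strands that overlap each other. ATP5PF held both motifs, NDUFB7 an ETS motif and ATP5MC2 an NRF1 motif, so among these 5 genes both sides of 0 shared the same letters. Other genes described below also had groups that did not overlap. Some of them held an NRF1 or ETS motif in the same 150 bases, and their sequences are not shown. With both GLUP libraries below both controls these were COX6A1, COX5B, ATP5F1C, ATP5ME, SDHB, UQCRH and UQCRQ. COX8A was such a gene with both GLUP libraries above, so the 5 shown do not give the balance of directions. Of the genes described below without overlap, NDUFA5, NDUFA12, NDUFV2, NDUFB8, NDUFB6, NDUFB11, NDUFV1 and UQCRC1 held neither motif in the same 150 bases.

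In the window from 250 bases before to 50 bases after the start, the NRF1 motif was found in 14 of the 71 member promoters (19.7%). It was found in 6.67% of the 5548 promoters of genes tested here and in 3.27% of the 27305 promoters in the table. The ETS motif was found in 28.2% of member promoters, against 23.5% of those of genes tested. The YY1 motif (ATGGCGGC) was found in 16.9%, against 7.68%. A CCAAT box stood in 35.2% against 39.5%, and TATAAA in 9.86% against 5.61%. Both strands were searched, and matches of different motifs were counted separately. Among members whose GLUP libraries both lay below both controls, 10 of 36 promoters held the NRF1 motif, and among those whose GLUP libraries both lay above, 1 of 10 did. In the same order, the ETS motif stood in 12 and 2, YY1 in 4 and 3, CCAAT in 13 and 3, and TATAAA in 2 and 0. Shares for all genes tested were not split by direction. These are counts of letters in a window and carry no test.

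The 2 GLUP libraries were closer to each other than the 2 control libraries were. Over the members tested, the correlation of log2(FPKM + 1) was 0.995 between the GLUP libraries and 0.939 between the controls, and Con 2 was farther from the GLUP libraries (0.895 and 0.907) than Con 1 (0.968 and 0.971). These values are across genes, which are not independent replicates. FPKM is a read count scaled for transcript length and library size, so levels of different genes can be set side by side, and its sum over all genes was 909735 and 922108 in the controls and 935985 and 949919 with GLUP. Sequencing depth is unknown from these files, so no counting error can be given. Of the cell line checks, VIM was at 293 to 387 FPKM, KRT8, KRT18 and KRT19 were between 0.764 and 2.25 FPKM, and EPCAM and CDH1 were below 0.13 FPKM in every library. All 5 blood markers had a mean under 1 FPKM, and of 4 fibroblast and endothelial markers DCN (20.1 to 41.4 FPKM) and COL1A1 (2.97 to 6.91 FPKM) reached that level.

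No member passed the test across all genes. The fits used limma on log2(FPKM + 1) over the 7588 genes that averaged 1 FPKM or more, with Benjamini-Hochberg adjustment, and 82 of the 91 members passed that filter. At an adjusted p under 0.05 and a fold over 2, 0 of the 82 members were called, beside 2 of all genes tested (0.0264%), and the lowest adjusted p of a member was 0.10. At an unadjusted p under 0.05 and the same fold, 7 members (8.54%) were lower with GLUP, where 14.5% of all genes tested were. They were NDUFA5, NDUFA12, NDUFS3, NDUFV2, NDUFB6, SDHD and ATP5PF. At that limit 3 members (3.66%) were higher (NDUFB7, NDUFB11 and SDHA), where 4.67% of all genes were. Without the limit on fold, 13 members (15.9%) were lower and 5 (6.1%) higher at that p, where 25.4% and 6.37% of all genes were. Leaving out Con 1 or Con 2 gave 31 or 9 adjusted calls among the members, beside 35.7% and 13.4% of all genes, with the lone control assumed to vary like the other libraries. All 9 without Con 2 were lower with GLUP: NDUFA5, NDUFA12, NDUFS3, NDUFV2, SDHD, UQCRFS1, COX7A2L, ATP5PB and ATP5PF. With 2 libraries against 2, an exact two-sided permutation test of a single gene cannot give a p below 0.333.

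By order alone, both GLUP libraries lay below both controls for 41 of the 82 members, beside 49.7% of all genes tested, and above both controls for 12 (14.6%), beside 17.5%. Centring each library on its median gave 16 below and 24 above, beside 29.8% and 32.7% of all genes, since it removes the shift of all genes. The groups overlapped for the other 29 (35.4%), beside 32.8%. The log2 fold change was below 0 for 56 of 82 members (68.3%), beside 66.7% of all genes. The median log2 fold change of the members was -0.40, and that of all genes tested was -0.36, so the members as a whole lay 0.05 below the rest. Without centring, these shares by order and the median were close to the background. When centred, the share of members below both controls was under that of all genes. In bulk RNA, less RNA per cell and fewer cells of a type cannot be told apart.

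**Figure D1:**
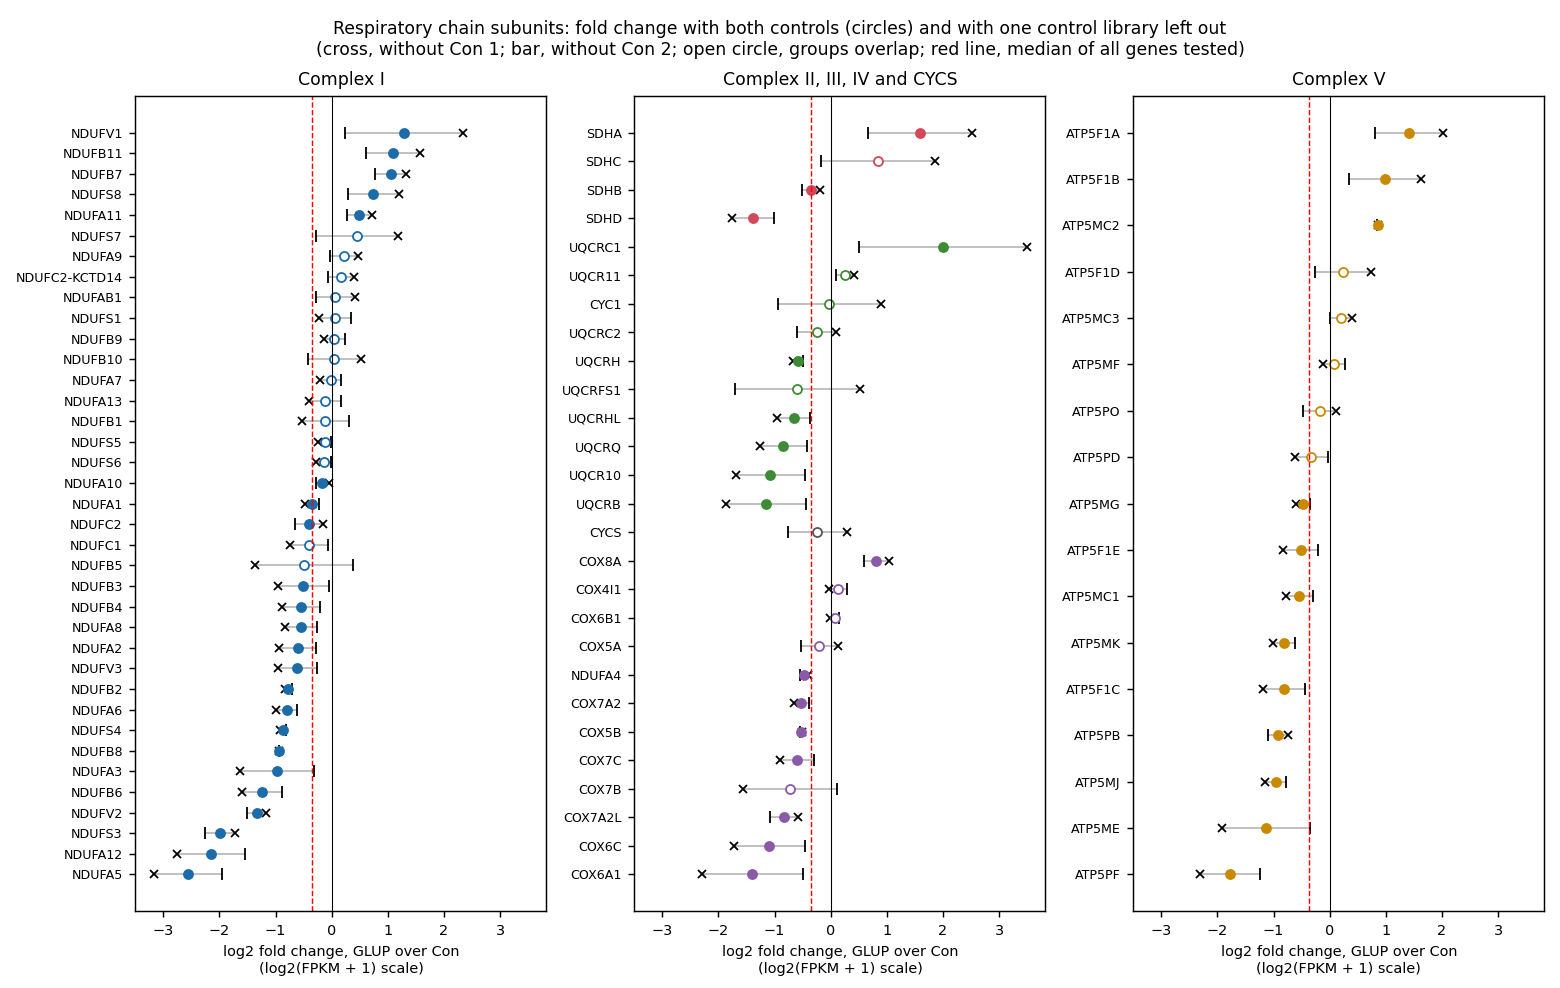
The log2 fold change (GLUP over Con, on the log2(FPKM + 1) scale) is plotted for members tested, in the panels for complex I, for complexes II to IV with CYCS, and for complex V. Circles use all 4 libraries and are open where the groups overlap, crosses leave out Con 1, vertical bars leave out Con 2, and the red dashed line is the median of all genes tested (-0.36). NDUFA5 is lowest at -2.56 and UQCRC1 highest at 2.00, and UQCRC1 spans 0.51 to 3.49 with a single control.

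The members together summed to 81484 FPKM in Con 1 and 110958 FPKM in Con 2, and to 67811 FPKM in GLUP 1 and 79166 FPKM in GLUP 2. Both GLUP libraries were below both controls in this sum, and the 2 controls lay farther apart than GLUP 2 and Con 1. These sums were 8.96% and 12.03% of all FPKM in the controls and 7.25% and 8.33% with GLUP. NDUFB9, an accessory subunit of the membrane arm of complex I, alone held 18888, 24386, 21951 and 22439 FPKM in Con 1, Con 2, GLUP 1 and GLUP 2, and its groups overlapped. It overlaps TATDN1 and MTSS1 on the opposite strand, and the strand of the counting is not given in the sources used here. Without NDUFB9 the members summed to 62596 and 86571 FPKM in the controls and to 45859 and 56727 FPKM with GLUP.

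**Figure D2:**
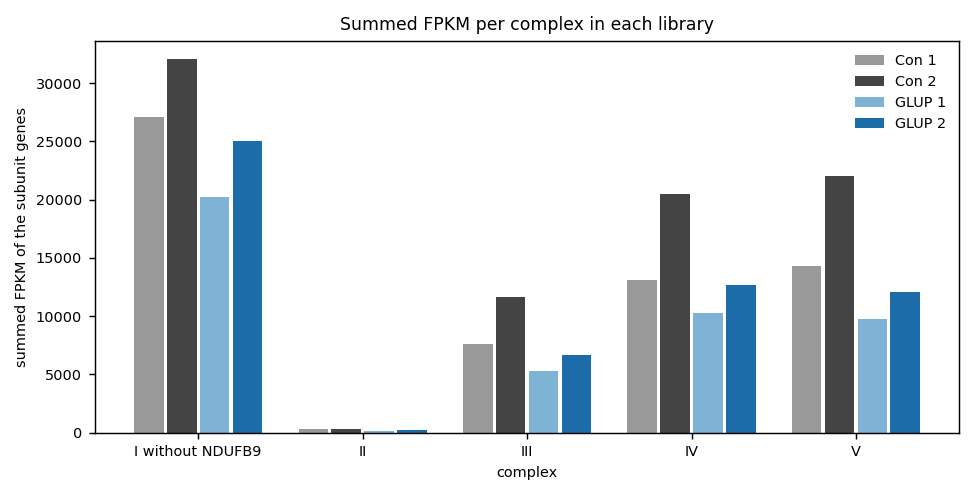
The summed FPKM of the subunit genes is drawn for each complex and library, with grey bars for the controls, blue bars for GLUP and NDUFB9 left out of complex I. Con 2 is the highest library in every complex, and both GLUP bars lie below both control bars in each, as in complex V at 14297 and 22013 FPKM in the controls and 9770 and 12072 FPKM with GLUP.

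Complex I, NADH dehydrogenase, had 38 members, all tested. Of these 18 (47.4%) had both GLUP libraries below both controls and 6 (15.8%) above, near the 49.7% and 17.5% of all genes tested, and 14 overlapped. The median log2 fold change was -0.26, which is 0.10 above that of all genes. The 7 nuclear core subunits, which carry FMN, the iron-sulfur clusters or the quinone site, split into 5 above 0 and 2 below, with a median of 0.45. The 31 others had a median of -0.40. The 16 subunits of the matrix arm, core subunits included, had a median of -0.38.

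The 2 core subunits below 0 were NDUFS3 and NDUFV2. NDUFS3, a core subunit next to the quinone-binding part of the matrix arm, was at 168 FPKM in Con 1, 117 FPKM in Con 2, 31.4 FPKM in GLUP 1 and 38.0 FPKM in GLUP 2. The controls and the GLUP libraries did not overlap and lay far from each other relative to the spread within groups. The log2 fold change was -1.99 ± 0.36 (SE, n = 2 per group), with an adjusted p of 0.10 in limma. It was -1.72 without Con 1, -2.25 without Con 2 and -2.08 once the trend with GC content was removed. NDUFS3 overlaps PTPMT1 on the same strand, at 16.9, 9.49, 14.7 and 14.4 FPKM, and the sum of both genes still differed by -1.62 on the log2 scale. NDUFV2, the iron-sulfur subunit beside the FMN site, was at 645 and 511 FPKM in the controls and 220 and 234 FPKM with GLUP. Its log2 fold change was -1.34 ± 0.31, and -0.82 with the GC trend removed.

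The fold changes of the core subunits above 0 varied with the control library used. NDUFV1, which binds NADH and FMN, was at 94.5 FPKM in Con 1, 21.2 FPKM in Con 2 and 113 and 109 FPKM with GLUP. Con 2 was the library that stood apart, while Con 1 lay near the GLUP libraries. The log2 fold change of 1.29 ± 0.69 was 0.23 without Con 2 and 0.78 with the GC trend removed. NDUFS7 and NDUFS8, which carry iron-sulfur clusters, had log2 fold changes of 0.45 ± 0.53 and 0.74 ± 0.39. The groups of NDUFS7 overlapped, and its value was -0.29 without Con 2 and -0.19 with the GC trend removed. Those of NDUFS8 did not overlap, and its value was 0.29 without Con 2 and 0.17 with the GC trend removed. NDUFS1, the largest core subunit, was low in all libraries, at 1.88 to 3.30 FPKM.

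Of the accessory subunits, NDUFA5 and NDUFA12, both in the matrix arm, had the lowest values of all members. NDUFA5 was at 62.5 and 146 FPKM in the controls and at 11.5 and 20.7 FPKM with GLUP, a log2 fold change of -2.56 ± 0.53. NDUFA12 was at 1444 and 3360 FPKM in the controls and at 431 and 569 FPKM with GLUP, a log2 fold change of -2.15 ± 0.46. In each, the higher control was over 2 times the lower, and both GLUP libraries lay below them. With the GC trend removed the values were -1.66 and -1.53. NDUFB8, in the membrane arm, was at 6061 and 5989 FPKM in the controls and 2823 and 3495 FPKM with GLUP. Its controls were near each other, and its log2 fold change was -0.94 ± 0.24, with an adjusted p of 0.101 in limma. With the GC trend removed it was -1.10. A gene on the same strand overlaps NDUFB8, and their sum differed by -0.89. NDUFB6, another membrane arm subunit, was at 363 and 595 FPKM in the controls and 197 and 195 FPKM with GLUP, a log2 fold change of -1.24 that was -0.58 with the GC trend removed.

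A few accessory subunits lay on the other side. NDUFB7, an intermembrane space subunit, was at 241 and 163 FPKM in the controls and 412 and 411 FPKM with GLUP, a log2 fold change of 1.05 ± 0.34. NDUFB11, a membrane arm subunit, was at 82.9 and 42.2 FPKM in the controls and 115 and 140 FPKM with GLUP, a log2 fold change of 1.09 ± 0.43. Both kept GLUP above each single control, by 0.77 and 0.61 against Con 1 alone, and with the GC trend removed their log2 fold changes were 0.45 and 0.66. NDUFA13, also known as GRIM-19, was second to NDUFB9 in level, at 5110, 7617, 5070 and 6532 FPKM, and its groups overlapped. The readthrough gene NDUFC2-KCTD14, which shares exons with NDUFC2, was listed at 272, 198, 268 and 254 FPKM, above NDUFC2 itself at 177, 124, 107 and 117 FPKM. The sum of both was 449, 322, 375 and 370 FPKM, so the reads of this pair cannot be assigned with confidence to either gene.

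Complex II, succinate dehydrogenase, is the only complex with no mitochondrially encoded subunit. Of its 4 genes 2 were above 0 and 2 below. SDHD, a membrane anchor, was at 97.2 and 164 FPKM in the controls and 46.2 and 49.2 FPKM with GLUP, a log2 fold change of -1.39 ± 0.38 that was -1.76 without Con 1, -1.01 without Con 2 and -0.65 with the GC trend removed. SDHB, the iron-sulfur subunit, was at 132 and 106 FPKM in the controls and 85.0 and 101 FPKM with GLUP, a log2 fold change of -0.35. SDHC, the other anchor, was at 35.5, 8.002, 29.4 and 33.7 FPKM, with groups that overlapped. SDHA, the flavoprotein, was the least abundant, at 5.57 and 0.815 FPKM in the controls and 8.08 and 10.8 FPKM with GLUP. Its log2 fold change of 1.58 ± 0.62 was 0.66 without Con 2. A gene on the same strand that overlaps SDHA had the opposite order, and the sum of both was 10.0, 18.3, 9.87 and 10.8 FPKM, a log2 difference of -0.36, so the direction of SDHA depends on how reads were shared between them.

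Complex III, the cytochrome bc1 complex, had a median log2 fold change of -0.59, which is 0.23 below all genes. Both GLUP libraries lay below both controls for 5 of its 10 members and above for 1, beside 49.7% and 17.5% of all genes tested. The 2 lowest were UQCRB and UQCR10, small accessory subunits. UQCRB was at 200 and 533 FPKM in the controls and 159 and 135 FPKM with GLUP, and UQCR10 was at 1018 and 2395 FPKM in the controls and 637 and 861 FPKM with GLUP. In both genes Con 2 was the highest library. UQCRQ, the most abundant, was at 3310, 5886, 2080 and 2896 FPKM, and UQCRH, the hinge protein, at 1817, 2043, 1188 and 1390 FPKM. UQCRHL, a copy of UQCRH with a single exon, was listed at 7.83 to 18.3 FPKM, and reads of the near-identical pair may have been split between them.

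The 4 core and redox subunits of complex III were lower in Con 2 than in Con 1 in every case, by a median of 2.04 on the log2 scale. UQCRC1, a core protein, was at 170 FPKM in Con 1, 20.6 FPKM in Con 2 and 267 and 219 FPKM with GLUP. Its log2 fold change of 2.00 ± 0.93 was the highest of all members, and it was 3.49 without Con 1 and 0.51 without Con 2. UQCRFS1, the Rieske iron-sulfur protein, was at 174, 36.4, 58.5 and 47.3 FPKM. CYC1, cytochrome c1, was at 25.4, 6.34, 12.7 and 12.6 FPKM, and its log2 fold change of -0.02 was 0.90 without Con 1 and -0.95 without Con 2. For UQCRFS1 and CYC1 the GLUP libraries lay between the controls. UQCR11, an accessory subunit, was at 881, 701, 850 and 1036 FPKM. CYCS, the cytochrome c that carries electrons from complex III to complex IV, was at 228, 110, 135 and 133 FPKM, again with GLUP between the controls.

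Complex IV, cytochrome c oxidase, has its catalytic subunits encoded in mitochondrial DNA, so all its members here are accessory. Of the 12 tested, 7 (58.3%) had both GLUP libraries below both controls and 1 (8.33%) above, beside 49.7% and 17.5% of all genes tested. The median log2 fold change was -0.53, against -0.36 for all genes. COX6A1 had the lowest fold change and the highest mean FPKM, with Con 2 far above the other libraries. It was at 1920 and 6737 FPKM in the controls and 1150 and 1627 FPKM with GLUP. Its log2 fold change was -1.39 ± 0.60 with all libraries, -2.30 without Con 1, -0.49 without Con 2 and -1.43 with the GC trend removed. The pseudogene COX6A1P2 was also highest in Con 2, at 64.3, 414, 52.2 and 103 FPKM. COX6C was at 206 and 498 FPKM in the controls and 133 and 168 FPKM with GLUP. COX5B, by comparison, had controls of 1686 and 1638 FPKM that were near each other and GLUP values of 1031 and 1287 FPKM, a log2 fold change of -0.53 ± 0.28. COX8A was the member above 0 with no overlap, at 279 and 205 FPKM in the controls and 394 and 448 FPKM with GLUP, a log2 fold change of 0.81 ± 0.33 that was 0.43 with the GC trend removed. COX6B1, at 1919, 2144, 1875 and 2429 FPKM, and COX4I1, at 1575, 1956, 1743 and 2126 FPKM, overlapped between groups. Both were above COX6A1 in each GLUP library.

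Of 9 listed genes that are tissue-restricted isoforms, paralogs or copies of other subunit genes, 8 had a mean under 1 FPKM. The other was UQCRHL, given above. COX6A2 and COX7A1, the heart and skeletal muscle forms, were listed at 0 in all 4 libraries. COX4I2, COX6B2, COX7B2, COX8C and NDUFA4L2 did not exceed 0.48 FPKM in any library, and ATP5MGL did not exceed 0.28 FPKM. The readthrough ATP5MF-PTCD1 stayed at or below 0.24 FPKM. The readthrough gene and these 8 genes were the 9 members that did not reach a mean of 1 FPKM and were not tested.

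Complex V, the ATP synthase, had 17 members tested, of which 9 (52.9%) had both GLUP libraries below both controls and 3 (17.6%) above, near the 49.7% and 17.5% of all genes tested. The median log2 fold change was -0.47, which is 0.11 below all genes. The peripheral stalk, which holds the catalytic head still, was below 0 in all 4 of its genes, at -0.18 to -1.77. ATP5PF (coupling factor 6) was the lowest, at 1944 and 4099 FPKM in the controls and 715 and 952 FPKM with GLUP, a log2 fold change of -1.77 ± 0.43 that was -1.09 with the GC trend removed. ATP5PB, the b subunit, was at 287 and 222 FPKM in the controls and 129 and 136 FPKM with GLUP. The log2 fold change of ATP5PB, -0.92, was -0.17 with the GC trend removed. With the GC trend removed the median of the 4 stalk genes was 0.01.

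The F1 head and central stalk did not share a direction. ATP5F1A, the alpha subunit, was at 223 and 95.4 FPKM in the controls and 257 and 593 FPKM with GLUP, and ATP5F1B, the catalytic beta subunit, was at 430, 178, 638 and 469 FPKM. In both, Con 2 was the lowest library, and the log2 fold changes of 1.42 ± 0.59 and 0.98 ± 0.49 were 0.81 and 0.35 without Con 2. ATP5F1C, the gamma subunit, was at 305 and 514 FPKM in the controls and 222 and 225 FPKM with GLUP. ATP5ME and ATP5MJ, small membrane subunits, were the most abundant of the complex. ATP5ME was at 2174, 6413, 1338 and 2148 FPKM and ATP5MJ at 3110, 4023, 1690 and 1944 FPKM, with log2 fold changes of -1.14 ± 0.56 and -0.96 ± 0.27. With the GC trend removed these were -1.29 for ATP5ME and -0.46 for ATP5MJ. With that trend removed, ATP5F1A was at 1.90 and ATP5F1B at 1.14, while ATP5F1C went from -0.82 to -0.19.

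Subunit c, which forms the rotating ring, is encoded by 3 genes that make the same mature protein. ATP5MC2 was at 219 and 217 FPKM in the controls and 390 and 400 FPKM with GLUP, a log2 fold change of 0.85 ± 0.30. Of the members above 0 it moved least with the control used, at 0.86 without Con 1 and 0.85 without Con 2, and it was 0.67 with the GC trend removed. ATP5MC1, the most abundant of the set, was at 1292 and 1805 FPKM in the controls and 932 and 1180 FPKM with GLUP, a log2 fold change of -0.54. ATP5MC3 was at 199, 152, 220 and 184 FPKM, with groups that overlapped. The 3 genes together summed to 1711, 2174, 1542 and 1763 FPKM, so GLUP 2 lay between the controls.

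**Figure D3:**
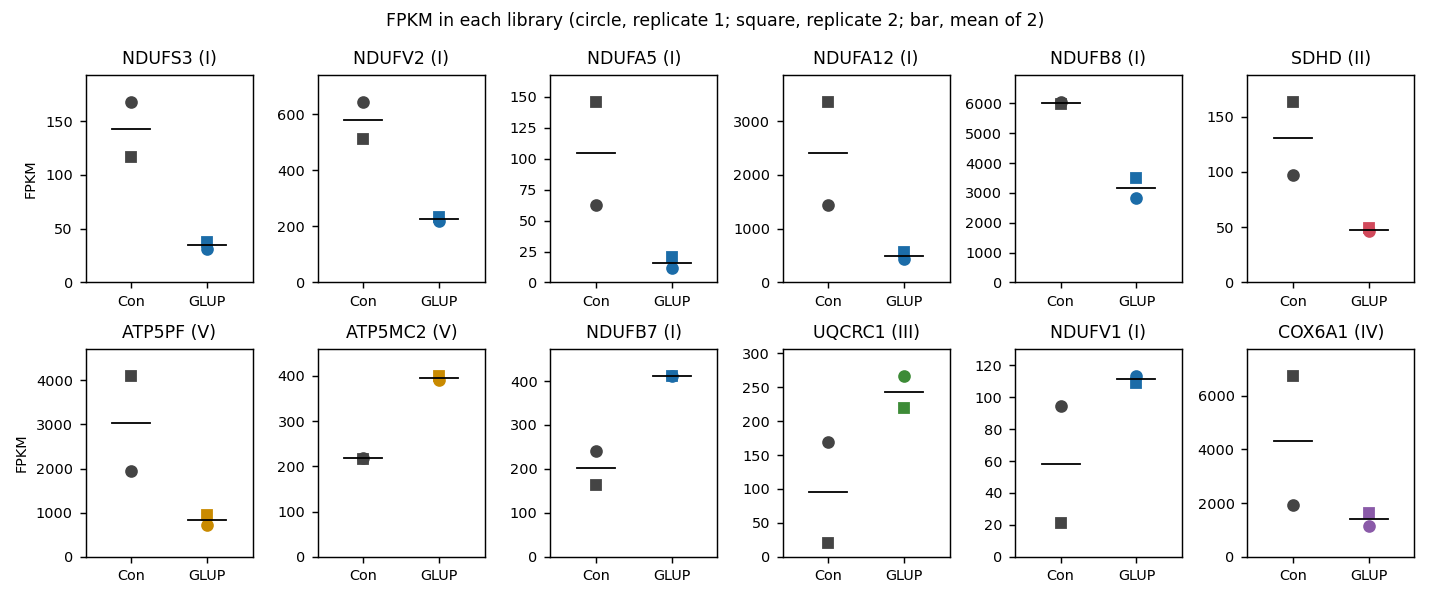
FPKM in each library is plotted for 12 members with the complex in brackets, on linear axes from 0; circles are replicate 1, squares replicate 2, and bars the mean of the 2 libraries. The groups are apart in every panel. In NDUFV1 and UQCRC1 the distance between the controls (94.5 and 21.2 FPKM, 170 and 20.6 FPKM) is larger than that between Con 1 and the GLUP libraries. The same holds for NDUFA5, NDUFA12, SDHD, ATP5PF and COX6A1, where Con 2 is the highest library.

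The controls were also compared with each other, as a description with no test. For the 20 core subunits of complexes I, II, III and V (with all 4 of complex II and the 5 of the F1 part), Con 2 was below Con 1 in 16, with a median difference of -1.10 on the log2 scale. For the other 62 members tested the median difference was 0.34, and Con 2 was below Con 1 in 21. All genes tested had a median of -0.07, and Con 2 was below Con 1 in 4087 of 7588. The citric acid cycle enzymes, which are not subunits, were lower in Con 2 in 9 of 11. The core subunits also had longer transcripts than the other members (medians of 1450 and 667 bases), and the part of length was not tested. The median log2 fold change with GLUP was 0.14 for the core subunits with both controls, 0.81 without Con 1 and -0.23 without Con 2. For the other members it was -0.50, -0.64 and -0.30. The median of the core subunits was above that of the others in all cases, and the distance between the medians was smallest without Con 2. What set Con 2 apart was not tested.

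**Figure D4:**
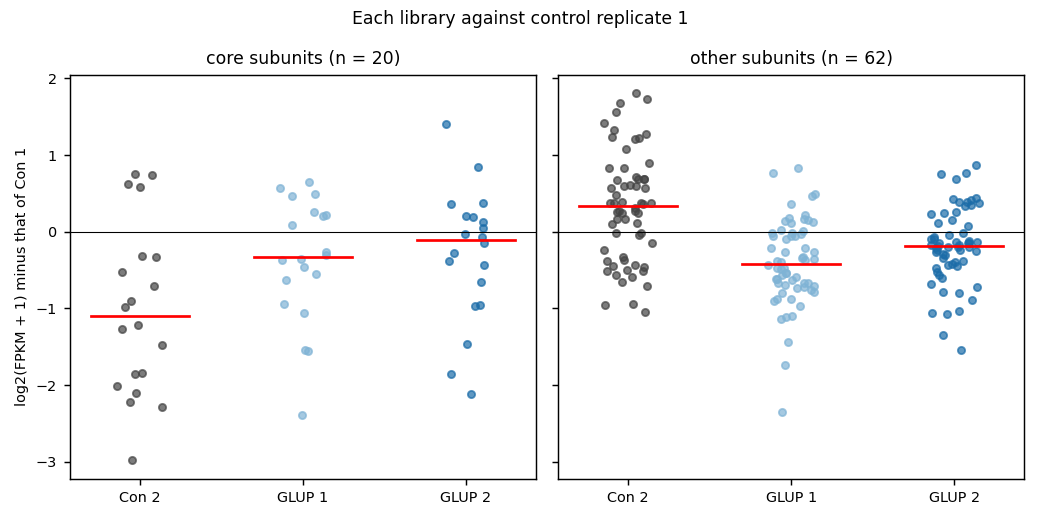
The difference in log2(FPKM + 1) from Con 1 is plotted for Con 2 and the GLUP libraries, for 20 core subunits and 62 other members, with points for genes and red lines for medians. The core subunits are lower in Con 2, at a median of -1.10, and the others higher, at 0.34.

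GC content moved with the fold change. GC content was that of the canonical transcript in the GENCODE annotation. Over the 82 members, Spearman's rho of the log2 fold change with transcript GC content was 0.49, and over all genes tested it was 0.59. The difference of Con 2 from Con 1 had a rho of -0.36 with GC content over the members. All points share the same 4 libraries, and genes are not independent. Of the 27 members with the lowest GC content (34.6 to 44.2%), 18 had both GLUP libraries below both controls and 0 above. Of the 28 with the highest (52.5 to 69.5%), 7 had both GLUP libraries below and 9 above. Over all genes tested of any GC content, 49.7% lay below and 17.5% above. Shares of all genes in the same GC ranges were not counted, so whether these counts are particular to the members cannot be told. Once the trend with GC content over all genes was removed from each library, both GLUP libraries lay below both controls for 20 members, beside 27.7% of all genes tested, and above both for 17, beside 27.8%. The median of the members was then -0.04. The part of GC content in the fold changes was not tested. Members had short transcripts (a median of 760 bases, against 2242 for all genes tested), and rho with transcript length was 0.03.

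**Figure D5:**
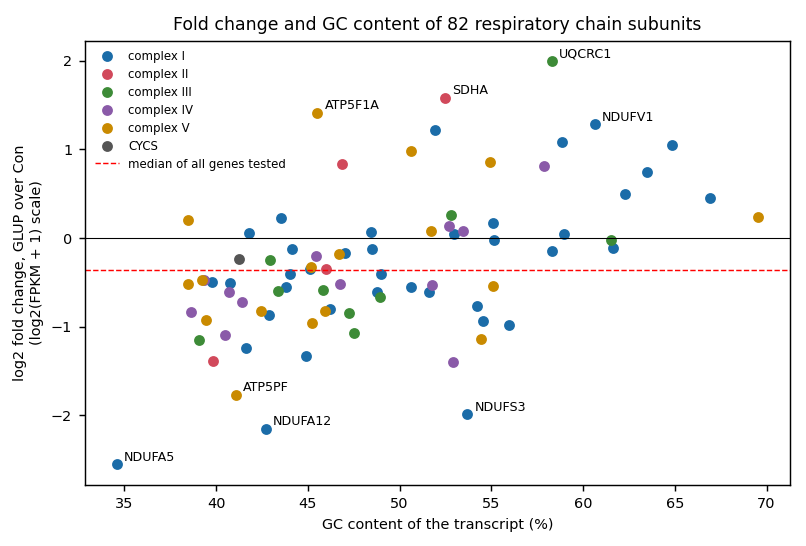
The log2 fold change of each member tested is plotted against the GC content of its transcript, coloured by complex; the red dashed line is the median of all genes tested. Members below 45% GC are mostly under 0, and NDUFS3 at 53.7% GC is the lowest of the members above 45%.

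The proteins that build the complexes were examined beside the subunits. Of 47 assembly factors 44 were tested, and both GLUP libraries lay below both controls for 32 (72.7%) and above for 5 (11.4%), beside 49.7% and 17.5% of all genes tested. At an unadjusted p under 0.05 and a fold over 2, 12 (27.3%) were lower and 2 (4.55%) higher, beside 14.5% and 4.67% of all genes, and 0 passed the adjusted test. Their median log2 fold change was -0.69, and it lay 0.34 below that of all genes with both controls, 0.45 without Con 1, 0.35 without Con 2 and 0.29 with the GC trend removed. TMEM126B, a complex I assembly factor, was at 48.5 and 83.1 FPKM in the controls and 12.8 and 15.6 FPKM with GLUP. LYRM7, which matures the Rieske protein, was at 23.3 and 17.6 FPKM in the controls and 6.005 and 3.04 FPKM with GLUP, and COX20, a chaperone of complex IV, was at 128 and 173 FPKM in the controls and 41.4 and 38.6 FPKM with GLUP. SCO2, a copper chaperone of complex IV, was on the other side, at 2.02, 0.0559, 7.32 and 6.66 FPKM. These genes were named after their values were seen.

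The 13 subunits encoded in mitochondrial DNA summed to between 202316 and 226066 FPKM, more than the nuclear members together in every library. Both GLUP libraries lay above both controls for 6 of them (46.2%) and below for 3 (23.1%), beside 17.5% and 49.7% of all genes tested. MT-CYB, cytochrome b of complex III, was at 14207 and 6116 FPKM in the controls and 29365 and 26170 FPKM with GLUP, while MT-CO2 of complex IV was at 109074 and 129095 FPKM in the controls and 90005 and 95917 FPKM with GLUP.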

How the data were processed

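Total RNA of HGC-27 cells was sequenced in 4 libraries (2 Con, 2 GLUP), grouped by the sample titles. Nothing ties equal replicate numbers to a shared day, so p-values measure the spread between these libraries. The authors deposited FPKM values, 1 row per gene, from the Majorbio platform. The submitters' processing notes name HISAT2, Cufflinks, RSEM and GRCh38.p10, without versions or roles, whereas row IDs carry the form of an annotation lifted to GRCh37. Therefore gene positions are not printed, and promoters come from RefSeq (GRCh38.p14). Depth is unknown and whole reads could not be recovered from the FPKM steps.

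Rows of 1 gene ID were summed, and 99.55% of IDs had a name in GENCODE v44 lifted to GRCh37, which also gave transcript GC content, length and overlaps. Genes averaging 1 FPKM or more entered limma (version 3.58.1, R 4.3.3) as log2(FPKM + 1). Variances were moderated along the trend with the mean, and p-values were adjusted by Benjamini-Hochberg over all genes tested. A fold change on this scale understates the change of low genes. Tables were made with Python 3.11.15, pandas 2.3.3 and SciPy 1.17.1. Data were simulated with 2 against 2 libraries over 7588 genes. Of 200 genes planted at a log2 change of 2, 91.6% passed an unadjusted p under 0.05 and a fold over 2. Of unchanged genes, 5.85% had a p under 0.05. The simulated noise was independent between genes, with the same spread in both groups. It held neither the wider control pair nor the trend with GC content, so these shares give no error rate or power for the real libraries. Alternatives changed the pseudocount, filter, scaling, moderation, replicate block, GC and length trends, libraries and fold threshold.

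Members and gene lists were chosen with earlier results of these data known. Per complex, the 2 members with the highest mean and the 2 highest and 2 lowest fold changes were named by rule. So were all of complex II, CYCS, the subunit c genes, the listed isoforms, paralogs and copies, and readthrough genes. Other members named were chosen after their values were seen. One member that meets this rule is not reported here, other than in counts, medians and sums.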

Additional observations from a re-analysis of the deposited data

How the results depend on the processing

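The absence of adjusted calls among the members held under 11 of the 14 alternative fits, all but the removal of either control and the GC trend with the replicate block (4 members, NDUFA5, NDUFA12, NDUFS3 and NDUFB8, all lower, beside 255 of the 7588 genes). Leaving out 1 library gave 0 to 31 adjusted calls: 31 without Con 1, where 35.7% of all genes passed, and 9 without Con 2, where 13.4% did. These fits assume that the lone control varies like the other libraries. With 2 libraries against 1, groups also fall apart by order more easily for any gene. Shares of all genes by order were 29.8% below and 32.7% above when centred, and 27.7% and 27.8% with the GC trend removed. The other counts of members in this paragraph have no share of all genes beside them. At an unadjusted p under 0.05 and a fold over 2, 3 members were higher. This count was 1 over all genes above 0 and with a mean of at least 5 FPKM, 9 when centred on medians, 5 after quantile normalization, 6 with the replicate block with or without GC correction, 8 with the length trend removed, 5 at a fold of 1.5, and 0 to 12 with 1 library left out (12 without Con 1; 0 without Con 2 and without GLUP 2). The 7 lower members became 12 with the replicate block, 13 at a fold of 1.5 and 4 to 19 with 1 library left out (19 without Con 1, 4 without GLUP 1). Members with both GLUP libraries above both controls, 12, became 24 when centred, 19 after quantile normalization, 23 with the length trend removed and 13 to 26 with 1 library left out (26 without Con 1); those below, 41, became 16 when centred, 20 with the GC trend removed with or without the block, and 43 to 53 with 1 library left out.

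The median of all members relative to all genes, -0.05, was 0.06 at a pseudocount of 0.1, -0.31 over all genes above 0, 0.02 at 5 FPKM, -0.16 after quantile normalization, -0.12 with the length trend removed and -0.15 to 0.05 with 1 library left out. For complex I, 0.10 became -0.24 over all genes above 0, -0.10 after quantile normalization, -0.09 with the GC trend removed with or without the block, and -0.10 to 0.15 with 1 library left out. For complex II, 0.60 became -0.24 from summed FPKM and 0.00 to 1.17 with 1 library left out. For complex III, -0.23 became -0.57 over all genes above 0 and -0.23 to 0.06 with 1 library left out. For complex V, -0.11 became 0.14 with the GC trend removed with or without the block and -0.38 from summed FPKM. CYC1 was the 1 member with an adjusted p under 0.05 in opposite directions, at a log2 fold change of 0.90 without Con 1 and -0.95 without Con 2, both under 2-fold. Removing the GC trend turned the sign of 24 of 82 log2 fold changes and centring that of 12. The replicate numbers pair nothing in the labels (deviations of equal numbers correlate at 0.126 over 2 pairs), and the cause of these shifts was not tested. Depth is unknown, and 2 libraries a group limit the precision.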

Other observations

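Genes around the respiratory chain varied in the same libraries. Of 13 enzymes of the citric acid cycle, which supplies NADH and succinate, 11 were tested, 4 (36.4%) with both GLUP libraries above both controls and 2 (18.2%) below, beside 17.5% and 49.7% of all genes tested. MDH2, malate dehydrogenase, was at 255 FPKM in Con 1, 37.5 FPKM in Con 2 and 388 and 315 FPKM with GLUP, and Con 2 stood apart as it did for UQCRC1. IDH3G, a subunit of isocitrate dehydrogenase, was at 14.5 and 6.51 FPKM in the controls and 38.3 and 37.7 FPKM with GLUP, and SUCLA2, a subunit of succinyl-CoA ligase, was at 16.7 and 20.6 FPKM in the controls and 6.60 and 5.91 FPKM with GLUP. None of the 11 passed the adjusted test. Of 12 regulators of mitochondrial biogenesis, 6 reached a mean of 1 FPKM. TFAM, which packages mitochondrial DNA, was at 4.86, 6.44, 4.43 and 3.51 FPKM, YY1 at 3.42, 4.03, 2.36 and 2.32 FPKM, while NRF1 stayed between 0.396 and 0.760 FPKM and GABPA below 0.29 FPKM.

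Pseudogenes named after members numbered 174, and 11 had a mean of at least 1 FPKM. They held 0.16 to 0.449% of the members' summed FPKM, with COX6A1P2 highest. Reads of a gene and such a copy may have been split.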
